A study of Homo sapiens with 3 samples.

Results

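The genes described here are the heat shock proteins and their DNAJ co-chaperones in 22Rv1, a human prostate cancer cell line. They were chosen by symbol, with no use of their levels. Taken were the HSPA, HSPB, HSP90, HSPH and HSPD or HSPE genes, the numbered DNAJA, DNAJB and DNAJC genes, and SDF2L1, an endoplasmic reticulum protein that works with a DNAJ partner. Named pseudogenes and the binding proteins HSPBP1 and HSPBAP1 were left out. The rule found 65 of the 15488 genes in the table. Of these, 51 had a mean of at least 1 CPM (counts per 1000000 counts of the library) over both libraries and were kept for ratios. The other 14 had fewer counts and are given by count only. HSPD1 is not analysed here.

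Heat shock proteins bind unfolded or partly folded proteins and keep them from aggregating. The HSP70 proteins, encoded by the HSPA genes, do so in cycles of ATP binding and hydrolysis. DNAJ proteins deliver clients and start hydrolysis, and the HSPH1 and HSPA4 proteins help to release the nucleotide. HSP90 proteins act later in folding, on kinases and on steroid receptors. Small heat shock proteins (HSPB) hold clients without using ATP. Some of these genes are active in every cell. Others are switched on by heat or other protein damage through the transcription factor HSF1, and those of the endoplasmic reticulum are switched on by the unfolded protein response.

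The cells received 20 μg of plasmid with MLPH, the gene of the melanosome transport adaptor melanophilin, as transcript V1 or as transcript V4, and were kept for 48 h. Another group received the empty vector. Each group had 1 library of poly(A) RNA, read as 150-base single-end reads. Values were compared between the V1 and V4 libraries alone, because the remaining column of the table carries no name that ties it to a sample, so no level without an MLPH plasmid is given. The labels name the transfections and no stress treatment.

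Counts summed to 9253399 in V1 and 9609381 in V4. The transfected gene was at a like level in both, with 7219 counts of MLPH in V1 and 7773 in V4 (ratio of V4 over V1 1.06, interval 1.03 to 1.10), which does not tell the transcripts apart. Of the markers of prostate epithelium, HOXB13 had 621 counts in V1 and 536 in V4 and KRT8 2085 and 1636, while KLK2 (8 and 13) and TMPRSS2 (1 and 2) were near 0. Fibroblast collagen RNA was nearly all in V1: 5 of 8 listed markers had a row, and they summed to 167.5 and 4.995 CPM. COL1A2 had 976 and 4 counts, COL3A1 526 and 0, LUM 33 and 44, FBLN1 15 and 0, and THY1 0 in both. Other listed markers differed too. The muscle genes MYH1 and CKM had 3 and 1 counts in V1 and 56 and 13 in V4. The muscle list as a whole did not share this, with ACTA1 at 98 and 92 counts and DES at 2 in both. Endothelial markers summed to 1 and 11 counts, the haemoglobin gene HBA2 had 118 and 78, and the macrophage gene CD68 86 and 59, with PTPRC and CD3E at 0 in both. The part of these differences in the chaperone values was not tested. In RNA from whole cultures, fewer cells of a type and less RNA per cell cannot be told apart. Folds are ratios of counts scaled by TMM (trimmed mean of M-values), and each has a 95% exact (Clopper-Pearson) interval of counting error. With 1 library per group there is no replicate, no test of the conditions is possible, and a ratio describes this pair of libraries only.

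Upstream sequences show which members carry the letters that HSF1 binds. HSF1 recognises alternating GAA and TTC units. The letters searched were 3 alternating units with any 2 bases between neighbours (GAA, TTC, GAA or TTC, GAA, TTC), and 2 such units (GAANNTTC or TTCNNGAA), in the 250 bases before each start in the RefSeq promoter table (GRCh38.p14, a later build than the hg19 of the counts). Both forms of each motif were read, which covers both strands, and every 3-unit match holds overlapping 2-unit matches. Capitals mark these letters. The stretches printed next are all from members that were lower in V4. HSP90AA1 and DNAJB6, which carry a 3-unit match and had intervals that included 1, are not printed. Nor is HSPA4L, which carries a 2-unit match and was higher in V4.

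HSPA6 (chr1:161524350-161524490, plus strand): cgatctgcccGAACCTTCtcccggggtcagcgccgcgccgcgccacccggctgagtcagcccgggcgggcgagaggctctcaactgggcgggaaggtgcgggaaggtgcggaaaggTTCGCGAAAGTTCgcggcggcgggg
HSPA1A (chr6:31815413-31815503, plus strand): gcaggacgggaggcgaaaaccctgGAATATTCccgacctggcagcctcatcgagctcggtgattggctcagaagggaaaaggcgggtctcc
HSPA1B (chr6:31827608-31827698, plus strand): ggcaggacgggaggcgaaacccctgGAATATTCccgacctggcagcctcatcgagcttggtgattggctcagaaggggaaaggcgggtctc
HSPB1 (chr7:76302463-76302553, plus strand): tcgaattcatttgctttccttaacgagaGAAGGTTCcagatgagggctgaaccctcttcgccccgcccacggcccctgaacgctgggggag
HSPA8 (chr11:123062166-123062376, minus strand): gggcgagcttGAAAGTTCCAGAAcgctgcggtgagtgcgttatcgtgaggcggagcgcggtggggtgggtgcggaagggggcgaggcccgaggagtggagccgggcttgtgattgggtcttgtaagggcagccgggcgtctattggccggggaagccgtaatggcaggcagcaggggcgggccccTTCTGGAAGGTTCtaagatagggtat

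Among the 59 members with a promoter entry, the 3-unit letters stood upstream of 5, or 8.47%, against 0.557% of the 27305 genes in the table. The 5 were HSPA6, HSPA8, HSP90AA1, HSP90AB1 and DNAJB6. The 2-unit letters stood upstream of 18 members, or 30.5%, against 14% of all genes. HSPA1A and HSPA1B carry the same GAATATTC, a 2-unit match, within a stretch that is nearly the same in both. In HSPA6 the printed stretch holds a 3-unit match 74 to 62 bases before the start and a 2-unit match further upstream. A match describes the letters, and no binding was measured here.

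The endoplasmic reticulum has an element of its own, read by factors of the unfolded protein response. Its letters, CCAAT and CCACG with any 9 bases between them, on either strand, stood upstream of 2 members, HSPA5 and HSP90B1 (3.39%), and of 0.0916% of all genes. Capitals mark them below, 1 match in HSPA5 and 2 in HSP90B1.

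HSPA5 (chr9:125241373-125241453, minus strand): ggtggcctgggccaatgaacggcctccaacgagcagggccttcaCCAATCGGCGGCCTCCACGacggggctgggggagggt
HSP90B1 (chr12:103930205-103930350, plus strand): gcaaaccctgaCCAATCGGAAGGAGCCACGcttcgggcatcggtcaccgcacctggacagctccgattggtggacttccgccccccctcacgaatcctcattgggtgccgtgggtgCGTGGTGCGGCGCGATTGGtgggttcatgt

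Members differed widely in level. Per kilobase of transcript, the most abundant in the V1 library was HSP90B1, the HSP90 protein of the endoplasmic reticulum, at 1708 CPM per kb in V1 and 1612 in V4. The small heat shock gene HSPB1 had 1436 CPM per kb in V1 and 960.3 in V4. HSPA5, which encodes BiP, the HSP70 protein of the endoplasmic reticulum, had 1299 and 1131. As counted, these 3 were the highest members in both libraries, and in V4 HSPB1 stood behind HSPA5. Each has 1 curated transcript in RefSeq, and genes with several had lower median levels, as given below. Next came DNAJA1, a general cytosolic J-protein, at 625 CPM per kb in V1 and 582 in V4, and HSPA9, the HSP70 protein of mitochondria, at 580.1 and 638, which had exchanged places in V4. At the other end, DNAJC2 and HSPA12A had 0 counts in both libraries, which allows up to 0.324 CPM in V1 and 0.312 CPM in V4 by counting error alone. All members together held 2.30% of counts in V1 and 2.14% in V4.

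**Figure D1:**
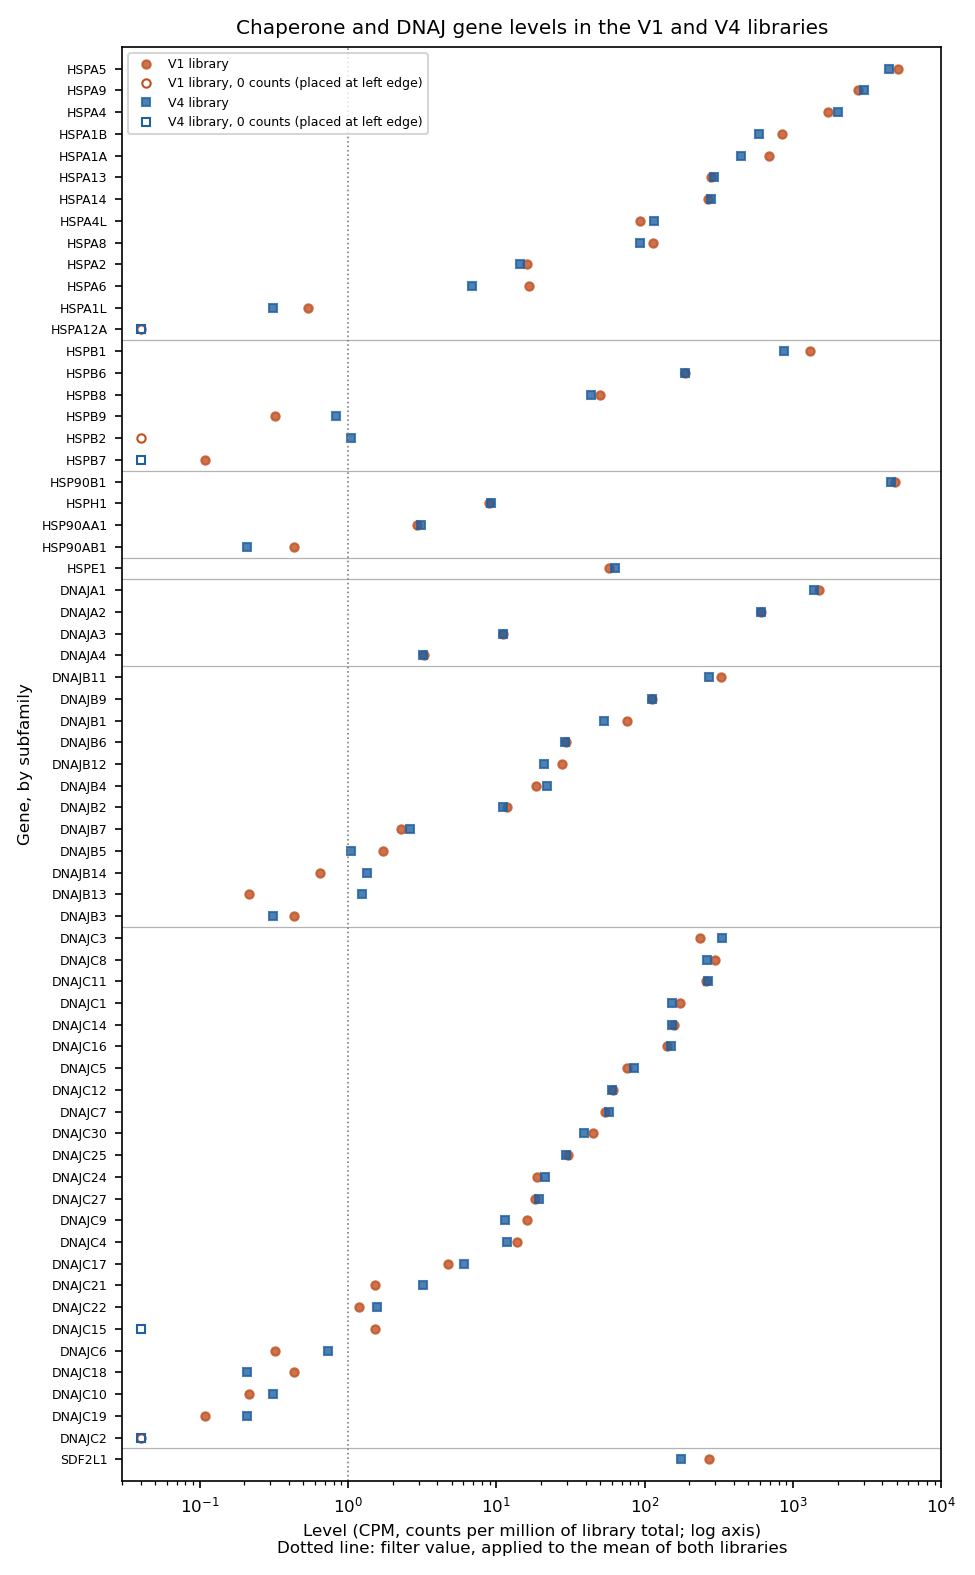
Level of each of the 65 members in the V1 library (circles) and the V4 library (squares), in CPM on a log axis, ordered by level within each subfamily; open symbols at the left edge are 0 counts, and the dotted line is the 1 CPM filter, which was applied to the mean of both libraries. Most pairs of symbols nearly touch, while HSPA6, HSPA1A, HSPA1B, HSPB1, DNAJB1 and SDF2L1 lie to the left in V4 and DNAJC3 to the right.

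Most members differed little between the libraries. At 1.5-fold or more, with an interval that excluded 1, 2 of 51 kept members were lower in V4 (3.92%), against 7.1% of all 8840 kept genes. They were HSPA6 and SDF2L1. On the other side 1 member, DNAJC21, was higher (1.96%), against 5.5% of all kept genes. With no condition on the interval, 3 were lower and 2 higher, against 9.59% and 7.83% of all kept genes. A smaller step, at least 20% lower or 25% higher with an interval that excluded 1, was used to name more members. By it 8 members were lower (15.7%, against 12.6% of all kept genes) and 3 higher (5.88%, against 11.5%). Whatever the size, 15 of 51 members had an interval wholly below 1 and 9 of 51 wholly above. Of all 8840 kept genes, 1855 (21.0%) were below and 1758 (19.9%) above. Genes with many counts have narrow intervals, so these shares depend on level. The median log2 ratio of the kept members was 0.02, beside -0.0040 for all kept genes, and ranged from -1.21 to 1.03. By these counts the members as a whole lay near the background of all genes. The shares at 1.5-fold and the share at least 25% higher were below it, but they rest on 1 to 3 members each. That is too few to read as a result about the members. The share with an interval wholly below 1 was above the background, and it depends on level. The differences described next are those of single genes.

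**Figure D2:**
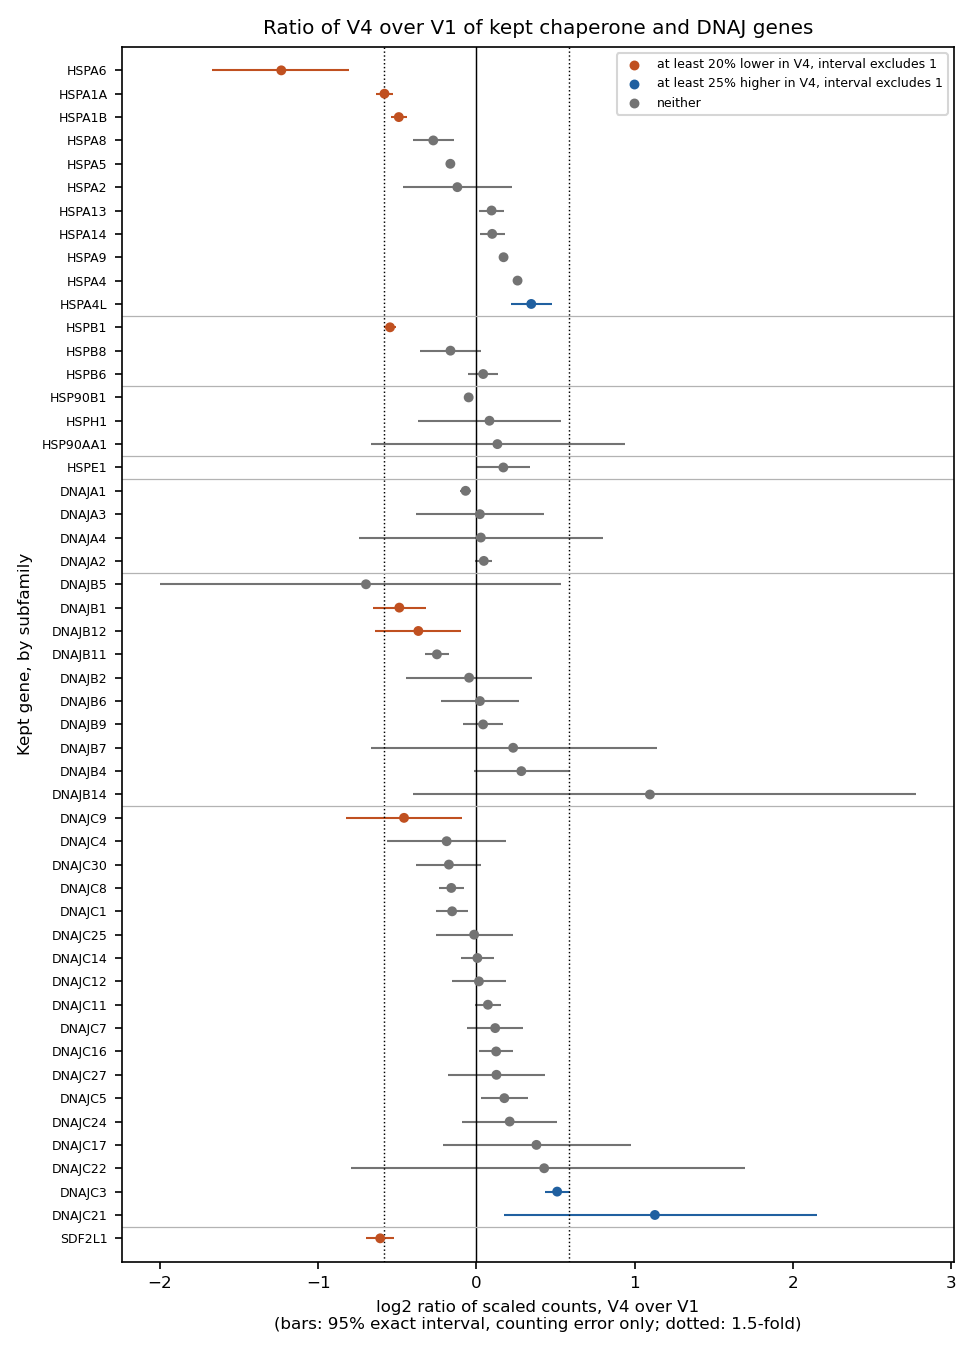
Log2 ratio of V4 over V1 of the 51 kept members by subfamily, with 95% exact intervals of counting error; orange marks members at least 20% lower, blue those at least 25% higher, and the dotted lines are 1.5-fold. The 8 lower members include the stress-inducible HSPA6, HSPA1A, HSPA1B, HSPB1 and DNAJB1, and wide intervals belong to members with few counts.

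The stress-inducible HSP70 genes were lower in the V4 library. HSPA6, a human HSP70 gene that is nearly silent in unstressed cells and strongly switched on by protein damage, had 153 counts (16.5 CPM) in V1 and 66 (6.87 CPM) in V4. It was 2.35-fold lower in V4, with an interval from 1.75 to 3.19, the largest fold among kept members. HSPA6 was the only kept member at least 2-fold lower, a size reached by 4.29% of all kept genes. Of its 150-base windows, 15.2% also occur in HSPA7, a near copy, and none in HSPA1A or HSPA1B, so reads of those genes do not match it over their whole length.

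HSPA1A and HSPA1B encode the major inducible HSP70 protein and lie side by side on chromosome 6. HSPA1A had 6324 counts (683 CPM) in V1 and 4286 (446 CPM) in V4, 1.496-fold lower (interval 1.44 to 1.56), just short of 1.5-fold. HSPA1B had 7813 counts (844 CPM) in V1 and 5638 (587 CPM) in V4, 1.41-fold lower (interval 1.36 to 1.45). Their coding sequences differ at 4 of 1926 bases, and 67.1% of the 150-base windows of HSPA1A and 70.0% of those of HSPA1B occur in another gene, each other included. How the counting placed such reads was not given in the sources used here, so their split between the genes is uncertain and their sum is the firmer value. That sum was 14137 counts in V1 and 9924 in V4, 1.44-fold lower (interval 1.41 to 1.48). HSPA1L, the testis member of the same cluster, had 5 and 3 counts.

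The partners of these proteins in the stress response were divided. HSPB1, the most abundant small heat shock gene, had 12081 counts (1306 CPM) in V1 and 8388 (872.9 CPM) in V4, 1.46-fold lower (interval 1.42 to 1.5). DNAJB1, the main stress-inducible J-protein of the cytosol, had 701 counts in V1 and 507 in V4, 1.40-fold lower (interval 1.249 to 1.57). So the inducible HSP70 genes, their J-protein and HSPB1 were all on the low side, at 1.40- to 2.35-fold. DNAJA1, with 13779 counts in V1 and 13320 in V4, was close to even (ratio 0.953, interval 0.931 to 0.976). DNAJB6, an inhibitor of aggregation, had 273 and 281 counts, and DNAJB4 171 and 211, both with intervals that included 1. HSPH1, the inducible nucleotide exchange factor, had 82 counts in V1 and 88 in V4. HSP90AA1, the inducible cytosolic HSP90 gene, had 27 and 30 (ratio 1.10, interval 0.630 to 1.92). HSPA4L, a relative of HSPH1, went the other way, with 866 counts in V1 and 1116 in V4 (ratio 1.27, interval 1.16 to 1.39).

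Of 16 listed heat-inducible genes, 13 were members with a row, and 12 of these were kept. At least 20% lower were 5 (HSPA6, HSPA1A, HSPA1B, HSPB1 and DNAJB1), at least 25% higher was 1 (HSPA4L) and 6 were neither. Over all kept genes, 12.6% were lower and 11.5% higher by the same steps. CRYAB, a listed gene outside the symbol rule, had 7 counts in V1 and 17 in V4 (ratio 2.40, interval 0.944 to 6.83) and is not among the 12. The listed members had a median log2 ratio of -0.02. Their summed level was 4626 CPM in V1 and 3595 CPM in V4, 1.26-fold lower (interval 1.24 to 1.27). HSPA1A, HSPA1B and HSPB1 together made up most of that sum, so the sum follows these 3 genes while the median counts each gene alike. All 5 lower genes carry the 2-unit letters upstream, a form searched after seeing the data that stands before 31.9% of the 47 kept members with a promoter entry and 14% of all genes, and so do HSPA4L, DNAJA1, DNAJA4, DNAJB4, DNAJB6, DNAJB7, HSP90AA1, HSPA8, HSPB6 and HSPB8, which were not among the 8 lower members. Among kept members the 3-unit letters stand upstream of HSPA6, HSPA8, HSP90AA1 and DNAJB6, whose V4 over V1 ratios were 0.43, 0.828, 1.10 and 1.02. The letters alone did not sort the members by ratio.

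The cytosolic genes that are active without stress were near even or slightly apart. HSPA8, the constitutive HSP70 gene, had 1057 counts in V1 and 887 in V4, 1.21-fold lower (interval 1.10 to 1.32). HSPA4, the constitutive exchange factor of the HSP110 type, had 15945 counts in V1 and 19351 in V4, 1.2-fold higher (interval 1.17 to 1.22). HSPA8 and its exchange factor, as counted, thus lay on opposite sides of even. Per kilobase of transcript, HSPA8 stood at 46.4 CPM in V1 and 37.5 in V4, against 275.2 and 179.6 for the inducible HSPA1A. HSPA8 has 2 curated transcripts in RefSeq and 20 pseudogenes by name, though none of its read-length windows occurs in another gene. Whether the counting left out reads of HSPA8 was not tested. HSPA14, an HSP70-like protein found at the ribosome, had 2489 counts in V1 and 2703 in V4 (ratio 1.07, interval 1.01 to 1.13). HSPA2, best known from the testis, had 148 and 138. DNAJA2 had 5614 and 5878 counts (ratio 1.03, interval 0.995 to 1.07). DNAJA4 had 30 and 31, and DNAJC7, a J-protein that binds both HSP70 and HSP90, 498 and 548. DNAJC8, which is linked to splicing, had 2774 counts in V1 and 2519 in V4, 1.12-fold lower (interval 1.06 to 1.18). Of the 8 kept members of this group, 0 were at least 20% lower and 0 at least 25% higher, against 12.6% and 11.5% of all kept genes. Their summed ratio was 1.11 (interval 1.09 to 1.13), and HSPA4 held most of the counts, so the sum mainly follows HSPA4.

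HSP90AB1 encodes the constitutive cytosolic HSP90 protein, among the most abundant proteins of cultured cells. It had 4 counts in V1 and 2 in V4, and no ratio can be read from them (0.493, interval 0.0446 to 3.44). HSP90AA1 stood at 0.831 CPM per kb in V1 and 0.889 in V4, and HSPH1 at 1.71 and 1.76, against 1708 and 1612 for HSP90B1. HSP90AB1 has 6 curated transcripts in RefSeq, HSPH1 5 and HSP90AA1 2, and HSP90B1 has 1. None of the 150-base windows of HSP90AB1 occurs in another gene. Over all members, the 31 with 1 curated transcript had a median of 50.7 CPM per kb and the 34 with 2 or more had 3.69. Over all genes the medians were 1.26 (5229 genes) and 0.614 (7904 genes). The levels of genes with several transcripts therefore need care. Whether the counting left out reads common to several transcripts was not tested.

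**Figure D3:**
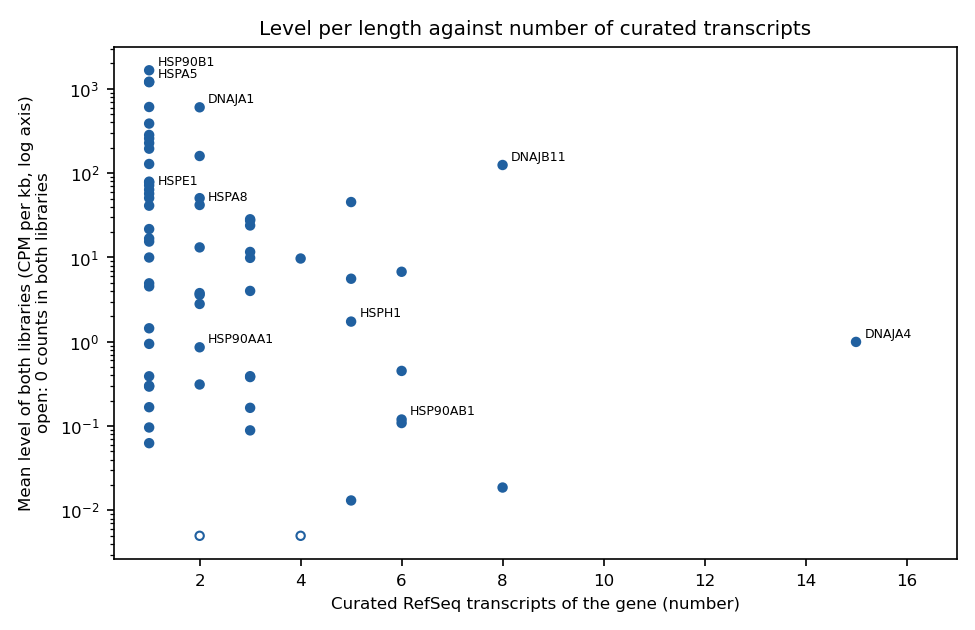
Mean level of each member over both libraries (CPM per kb of transcript, log axis) against its number of curated RefSeq transcripts; open circles are members with 0 counts in both libraries. HSP90B1 and HSPA5, with 1 transcript, stand at the top, HSP90AB1 with 6 near the bottom, and DNAJB11, with 8, shows that many transcripts do not always go with a low level.

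In the endoplasmic reticulum the HSP70 gene and several of its partners were lower in V4, while the HSP90 gene was near even. HSPA5 had 46982 counts (5077 CPM) in V1 and 42487 (4421 CPM) in V4, 1.12-fold lower (interval 1.11 to 1.14). HSP90B1 had 45172 counts (4882 CPM) in V1 and 44260 (4606 CPM) in V4 (ratio 0.966, interval 0.954 to 0.979). Both intervals excluded 1, and both differences were small. SDF2L1, which joins BiP and DNAJB11 in a complex, had 2518 counts (272 CPM) in V1 and 1675 (174 CPM) in V4, 1.52-fold lower (interval 1.43 to 1.62). DNAJB11, a soluble J-protein that brings clients to BiP, had 3045 counts in V1 and 2596 in V4, 1.19-fold lower (interval 1.13 to 1.254). DNAJC3 went the other way. This J-protein of the endoplasmic reticulum is also known as an inhibitor of the stress kinase PERK. It had 2194 counts (237 CPM) in V1 and 3167 (330 CPM) in V4, 1.42-fold higher (interval 1.35 to 1.5). Of the 3 members at least 25% higher it had the most counts.

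Other members of this compartment lay on both sides of even. DNAJB9, a J-protein of the unfolded protein response, had 1031 counts in V1 and 1076 in V4 (ratio 1.03, interval 0.944 to 1.12). HSPA13 had 2586 and 2801 (ratio 1.07, interval 1.01 to 1.13). The membrane J-protein DNAJB12, which works in the disposal of misfolded membrane proteins, had 257 counts in V1 and 202 in V4, 1.29-fold lower (interval 1.07 to 1.56). DNAJC1 was 1.11-fold lower (1612 and 1469 counts, interval 1.04 to 1.19) and DNAJC16 1.09-fold higher (1304 and 1441 counts, interval 1.01 to 1.18). DNAJC25 had 281 and 282 counts, DNAJB14 6 and 13, and DNAJC22 11 and 15, each with an interval that included 1. Of 13 kept genes in the group, 2 were at least 20% lower, 1 was at least 25% higher and 10 were neither. The shares were 15.4% and 7.69%, against 12.6% and 11.5% of all kept genes. Their summed level was 11564 CPM in V1 and 10561 CPM in V4, 1.07-fold lower (interval 1.06 to 1.08). The known partners of BiP thus did not share a direction, with SDF2L1 and DNAJB11 lower, DNAJC3 higher and DNAJB9 near even.

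The mitochondrial members lay on both sides of even, and the most abundant of them, HSPA9, was slightly higher in V4. HSPA9, which pulls proteins into the matrix and folds them there, had 25376 counts (2742 CPM) in V1 and 28967 (3014 CPM) in V4, 1.13-fold higher (interval 1.11 to 1.15). HSPE1, the lid of the mitochondrial chaperonin, had 534 counts in V1 and 609 in V4 (ratio 1.12, interval 0.9998 to 1.27). DNAJA3, the J-protein of HSPA9, had 103 and 106. DNAJC11, of the inner membrane organising machinery, had 2397 and 2555 (ratio 1.05, interval 0.994 to 1.11), and DNAJC30 414 and 372 (ratio 0.886, interval 0.768 to 1.02). DNAJC4 had 127 and 113 (ratio 0.878, interval 0.675 to 1.14). Of the 6 kept members, 0 were at least 20% lower or 25% higher, against 12.6% and 11.5% of all kept genes. Their summed ratio was 1.11 (interval 1.10 to 1.13), and HSPA9 held most of the counts. DNAJC15, a regulator of mitochondrial import, did not pass the filter, with 14 counts in V1 and 0 in V4.

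The small heat shock genes other than HSPB1 were nearer to even. HSPB6, known from muscle, had 1727 counts in V1 and 1803 in V4 (ratio 1.03, interval 0.963 to 1.10). HSPB8, the partner of the co-chaperone BAG3 in selective autophagy, had 462 and 418 (ratio 0.892, interval 0.780 to 1.02). Both intervals lie apart from that of HSPB1 (ratio 0.685, interval 0.666 to 0.704). HSPB9, HSPB2 and HSPB7 had 3, 0 and 1 counts in V1 and 8, 10 and 0 in V4. All 3 fell under the filter. Of the 150-base windows of HSPB2, 48.2% also occur in a readthrough transcript with its neighbour.

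Among the J-proteins outside these groups, 1 gene was at least 1.5-fold apart with an interval that excluded 1. DNAJC21, which acts in the making of the large ribosomal subunit, had 14 counts (1.51 CPM) in V1 and 31 (3.23 CPM) in V4, 2.18-fold higher, and its interval, from 1.13 to 4.44, reached down close to even. It was the only kept member at least 2-fold higher, a size reached by 2.1% of all kept genes. DNAJC9, which is also a histone chaperone, had 149 counts in V1 and 110 in V4, 1.37-fold lower (interval 1.07 to 1.77). DNAJC5, the cysteine string protein of secretory vesicles, had 708 and 811 (ratio 1.13, interval 1.02 to 1.251). DNAJC14 had 1450 and 1476 counts, and DNAJC12, a partner of the aromatic amino acid hydroxylases, 565 and 579. The other kept J-proteins of no group were DNAJB2, DNAJB5, DNAJB7, DNAJC17, DNAJC24 and DNAJC27. They had 16 to 174 counts in V1 and 10 to 204 in V4, log2 ratios from -0.60 to 0.36, and intervals that all included 1. DNAJB5, at 16 and 10 counts, was past 1.5-fold lower by its ratio alone. Over the DNAJC family, 1 of 18 kept members was at least 20% lower and 2 were at least 25% higher. In the DNAJB family 2 of 10 were lower and 0 higher, and in the DNAJA family 0 of 4 either way. Over all kept genes, 12.6% were lower and 11.5% higher by these steps. Most kept J-protein genes were thus neither, as were most kept genes, and the clearest differences were in DNAJB1 and DNAJC3.

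Members under the filter gave no ratio to lean on. Besides those already named, DNAJB13 had 2 counts in V1 and 12 in V4, DNAJB3 4 and 3, DNAJC6 3 and 7, DNAJC10 2 and 3, DNAJC18 4 and 2, and DNAJC19 1 and 2.

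For 6 named regulators of these proteins no difference was detectable. HSF1 had 395 counts in V1 and 362 in V4, and HSF2 37 and 30. BAG3, a co-chaperone that HSF1 switches on, had 112 and 95, HSPBP1 269 and 237, and HSPBAP1 21 and 22. STIP1, the adaptor between HSP70 and HSP90, had 2 and 3 counts, from which no ratio can be read, and whether the counting left out its reads was not tested. Each of these intervals included 1. Of 46 listed regulators, co-chaperones and chaperonin subunits, 43 had a row and 39 were kept. At 1.5-fold, 0 were lower and 1 was higher: FKBP5, a co-chaperone of steroid receptors, with 51 counts in V1 and 98 in V4 (ratio 1.90, interval 1.34 to 2.71). GRPEL2, an exchange factor of HSPA9 (683 and 943 counts, ratio 1.36), and BAG6 (287 and 368 counts, ratio 1.26) were also at least 25% higher, and 0 were at least 20% lower. Over all kept genes, 7.1% were lower and 5.5% higher at 1.5-fold, and 12.6% and 11.5% at the smaller steps. The median log2 ratio of the list was -0.02.

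The unfolded protein response list held 29 genes, of which 22 had a row and 19 were kept. At 1.5-fold, 0 were lower and 1 higher, SEL1L, the adaptor of a ubiquitin ligase that clears misfolded proteins (140 and 223 counts, ratio 1.57). PDIA4, a disulfide isomerase, was the 1 gene at least 20% lower (297 counts in V1 and 205 in V4, ratio 0.681). Over all kept genes, 7.1% were lower and 5.5% higher at 1.5-fold, and 12.6% were at least 20% lower. Whatever the size, 10 had an interval below 1 and 2 above, against 21.0% and 19.9% of all kept genes. The median log2 ratio was -0.15, beside -0.0040 for all kept genes. Of the 13 kept endoplasmic reticulum members, 6 had an interval below 1, HSPA5 and DNAJB11 among them, and 3 above. Short genes had lower ratios in this pair of libraries, as given below, and this list was not adjusted for length.

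Ratios in this pair of libraries moved with transcript length over all genes. Kept genes were split by length into 3 bins of near equal number. Their median log2 ratio was -0.12 in the shortest bin (50 to 2325 bases), -0.0037 in the middle bin (2326 to 4146 bases) and 0.14 in the longest (4147 to 27174 bases). Kept members had -0.15 (13 genes), -0.02 (24 genes) and 0.17 (14 genes) in the same bins. The members thus followed the same course as other genes of their length. By bin, the members at least 20% lower numbered 3, 4 and 1, and those at least 25% higher 0, 0 and 3. Over all kept genes (2691, 2689 and 2692 per bin), 490, 330 and 207 were lower and 130, 221 and 572 higher. Higher calls thus lay mostly among long genes, for members and for all genes.

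Taking out a smooth trend on length or on GC content left HSPA6 lowest, at -1.15 and -1.07 on the log2 scale (-1.21 before). SDF2L1, at 865 bases among the shortest members, moved from -0.61 to -0.44 and -0.35, which ends its place among genes 1.5-fold apart. HSPB1, of 909 bases, moved from -0.55 to -0.38 and -0.30, and DNAJB12 from -0.36 to -0.43 and -0.25. With the GC trend taken out both leave the members at least 20% lower, which then number 6, with 4 of the 5 heat-inducible genes among them. These were 6 of 51 members, against 9.94% of all genes fitted. With the length trend taken out 8 of 51 were lower, against 12.0%. HSPA1A moved from -0.58 to -0.53 and -0.42, HSPA1B from -0.49 to -0.45 and -0.34, and DNAJB1 from -0.49 to -0.42 in either. All 8 members at least 20% lower before any trend was taken out stayed below 0 with either one taken out. The length and GC trends were not taken out together. On the higher side, DNAJC3 (5591 bases) moved from 0.51 to 0.38 in either, while HSPA4L, at 10790 bases the longest of the kept members, moved from 0.35 to 0.08 and 0.19 and was no longer at least 25% higher in either. The members at least 25% higher then numbered 3 with the length trend taken out, where HSPE1 came in at 0.33, and 2 with the GC trend. Of all genes fitted, 9.18% and 10.4% were higher. Both trend counts at these steps were chosen after seeing the data. HSPA4 moved from 0.26 to 0.17 in either and HSPA9 from 0.17 to 0.08 and 0.09. HSPA13, which was slightly higher in V4, turned to -0.10 with the GC trend taken out, and DNAJC16 to -0.02 with the length trend.

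**Figure D4:**
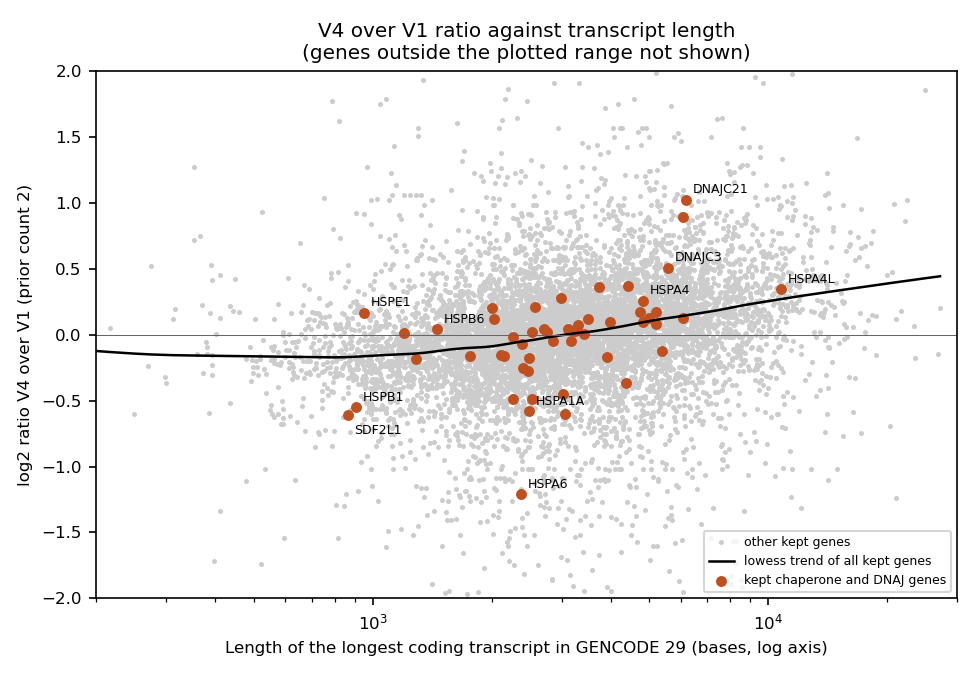
Log2 ratio of V4 over V1 (prior count 2) against the length of the longest coding transcript in GENCODE 29 (bases, log axis) for kept members (orange) and other kept genes (grey), with the smooth trend of all kept genes as a line. The line climbs from short to long transcripts; HSPA6, HSPB1 and SDF2L1 lie well below it, DNAJC3 above it, and HSPA4L close to it.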

How the data were processed

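RNA of 22Rv1 cells was measured in 3 samples, 1 per group. The authors deposited 1 table of gene-level read counts in whole numbers. Per the submitters' processing notes the build was hg19. The read aligner, counting program, annotation, strand setting and handling of reads with several matches were not given in the sources used here, nor is whether the technical replicate of the design text was summed. Columns were tied to samples by name. Another column (1 not used) could be read as the empty vector only by elimination, so the comparisons planned against the empty vector were left out.

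Counts of 21 repeated symbols in the 15512 rows were summed, and 22 rows with a calendar date for a symbol stayed unnamed. Genes with a mean of at least 1 CPM were kept: 8840, with 99.8% of V1 and 99.9% of V4 counts. TMM factors (edgeR 4.0.16, R 4.3.3) were 1.01 and 0.988. Calls used log2 ratios with a prior count of 2, and printed folds have no prior. Intervals (scipy 1.17.1) cover counting error only, and without molecular identifiers reads may be copies of the same molecule. The procedure was tested on simulated data with counting error alone and planted differences. Such data hold no spread between cultures, no copied reads and no length or GC trend, so the test does not cover these.

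The members, gene lists and markers were chosen with earlier results of these data known. Named were MLPH, each member called at 1.5-fold, the 2 most abundant kept members per subfamily, members at least 20% lower or 25% higher, 6 regulators and list genes at 1.5-fold. Other genes were named after their values were seen, to account for the members, and some listed markers are not reported here. Transcript lengths, GC content and shared 150-base windows came from GENCODE 29 (GRCh38), with a length for 91.3% of kept genes, and trends from lowess (statsmodels 0.14.6, fraction 0.3). Promoters came from the RefSeq table, where 59 of 65 members matched by symbol. Alternatives were other scaling (DESeq2 1.42.0 factors, upper quartile, total counts), other filters, folds and prior counts, thinning, trends removed, and members without SDF2L1 or the endoplasmic reticulum chaperones. The 2-unit motif, genes with 1 RefSeq transcript, and members without HSPA1A and HSPA1B were chosen after seeing the data. Figures were drawn with matplotlib 3.10.9.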

Additional observations from a re-analysis of the deposited data

How the results depend on the processing

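With 1 library per group, no difference has a replicate check, and counting intervals miss the spread between cultures. No paired analysis was possible because each group has 1 library, and the alternatives of the empty-vector comparisons were not run. The 2 members at least 1.5-fold lower became 8 at the step of 20% lower and 1 at 2-fold, 1 with a length or a GC trend removed, and 1 without SDF2L1 or without the endoplasmic reticulum chaperones. The 1 member higher became 3 with no filter and 3 at the step of 25% higher, 2 with no condition on the interval, 0 at a mean CPM of at least 10, and 0 among genes with 1 RefSeq transcript. DNAJC21, the member higher, has 14 and 31 counts. Under total counts HSPA1A also passed 1.5-fold. The median log2 ratio of the members stayed within 0.1 of its value under each alternative run. Of 408 member values under other settings, 32 moved outside the counting interval of the reported value. The 11 members at least 20% lower or 25% higher kept their direction in all of their 88 values. They were picked for a difference, and most settings shift a value only slightly, so a kept direction was nearly fixed in advance. Of these values 10 moved outside the interval, each with a length or GC trend removed.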
